A study of Mus musculus with 40 samples.

Results

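The fatty acid elongases *Elovl1* to *Elovl7* were followed in brown adipose tissue (BAT) of 40 mice. These 7 genes were taken by symbol from a count table of 20295 genes. All 7 passed the count filter and were tested, *Elovl2* only through a set of 12 libraries described below. BAT poly(A) RNA was sequenced in 8 groups of 5 male mice housed at 29 °C, that is, at thermoneutrality. In the first cohort, C-3BO mice carried the *Gpr3* TTG transgene and *Ucp1*-Cre and so overexpressed *Gpr3*, a Gs-coupled receptor that signals without a ligand, in brown and beige adipocytes from early life. Their controls were littermates that lacked either Cre or the transgene, all were 13 to 19 weeks old, and the mice received chow or a high-fat diet (HFD, 60 kcal% fat) for 7 days without injections. In the second cohort, mice labelled wildtype, which were 15-week-old control littermates of an inducible *Gpr3* line and could carry either Cre or the transgene but not both, were given daily injections of saline or of CL-316,243 (CL, 1 mg/kg) over 9 days. CL is an agonist of the β3-adrenergic receptor. These mice were fed chow or HFD for 7 days, with the injections on HFD begun 2 days before the change of diet.

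Elongases sit in the endoplasmic reticulum and add a carbon pair to an activated fatty acid. The elongase carries out the first, condensing step of a cycle that is completed by a ketoacyl reductase, a dehydratase and an enoyl reductase shared by the whole family. Members differ in the chains they accept. ELOVL6 lengthens palmitate to stearate, ELOVL1, ELOVL3 and ELOVL7 act mainly on saturated and monounsaturated long and very long chains, ELOVL4 makes the longest chains of retina, skin and brain, and ELOVL2 and ELOVL5 act on polyunsaturated chains. *Elovl3* was first described as a gene that cold induces in brown fat, where it serves lipid replenishment during thermogenesis.

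Total counts per library lay between 849126 and 15260516 with a median of 9050167. At these totals a count of 3, used as the floor of detection, equalled 0.206 to 3.01 CPM (counts per 1000000 of the TMM-adjusted library total), which covers counting error only. *Gpr3* had 2257 to 7490 counts in each of the 10 C-3BO libraries and 0 to 9 counts in the others, except 99 counts in chow CL replicate 3. Its mean level was 375 CPM (266 to 463) in chow C-3BO and 792 CPM (688 to 918) in HFD C-3BO mice. All 9 brown adipocyte markers, among them *Ucp1*, were detected in every group. Only 12 libraries held counts of *Lcn8*, an epididymal transcript, namely the 5 of HFD saline, the 5 of HFD CL and replicates 4 and 5 of HFD C-3BO. These were also the 12 libraries with the lowest totals, and their level of the liver transcript *Alb* was 62.2 to 294 CPM, against at most 1.62 CPM in the other 28. In the injected mice, diet and this set of libraries cannot be told apart. The elongase results on HFD C-3BO mice and the counts of gene lists were therefore also computed without replicates 4 and 5.

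In the mouse assembly mm9, the largest elongase gene was *Elovl6*, on the plus strand of chromosome 3 from 129235304 to 129341411, with 5 exons in its longest coding transcript. *Elovl3* occupied chromosome 19 from 46206389 to 46210184 on the plus strand with 4 exons, *Elovl5* chromosome 9 from 77765172 to 77832326 on the plus strand with 8 exons, and *Elovl4* chromosome 9 from 83672299 to 83699912 on the minus strand with 6 exons. *Elovl1* lay on chromosome 4 from 118100698 to 118105557 on the plus strand. *Elovl2* and *Elovl7* both lay on chromosome 13, from 41277751 to 41315772 on the minus strand and from 109004598 to 109077301 on the plus strand. Exons of *Pitx3* and *Cdc20*, both on the opposite strand, overlap exons of *Elovl3* and *Elovl1*. The library kit did not mark strand, so reads in these overlaps cannot be assigned to either gene. *Pitx3* had 0 to 32 counts in any library, against 2 to 5106 for *Elovl3*, and *Cdc20* had 2 to 47 counts, against 18 to 244 for *Elovl1*. Where *Elovl3* was low the counts were closer. *Pitx3* had 1 to 8 counts against 3 to 86 for *Elovl3* in HFD control mice. In HFD saline mice it had 0 to 5 against 2 to 38.

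RefSeq promoters, 250 bases before to 50 after a start site in assembly GRCm38.p6, matched 6 of the 7 elongases and not *Elovl3*. Those of the other 3 elongases that rose with CL and with C-3BO are shown beside motifs known to be bound by factors of cAMP and lipid signalling. Both strands were searched for the cAMP response element TGACGTCA, its core TGACG (which lies within it), the E-box CACGTG, the CCAAT box, the nuclear receptor core AGGTCA and the sterol response element TCACNCCAC. Capitals mark matches to motifs longer than 5 bases. The *Elovl4* window is chr9:83806256-83806555 on the minus strand, that of *Elovl5* chr9:77917115-77917414 on the plus strand and that of *Elovl6* chr3:129532136-129532435 on the plus strand.
Elovl4: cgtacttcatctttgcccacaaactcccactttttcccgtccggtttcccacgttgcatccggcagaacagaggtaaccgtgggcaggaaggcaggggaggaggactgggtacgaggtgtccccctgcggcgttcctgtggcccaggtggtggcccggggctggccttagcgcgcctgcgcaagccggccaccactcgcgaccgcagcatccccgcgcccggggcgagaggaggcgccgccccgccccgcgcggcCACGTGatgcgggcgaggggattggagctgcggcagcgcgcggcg
Elovl5: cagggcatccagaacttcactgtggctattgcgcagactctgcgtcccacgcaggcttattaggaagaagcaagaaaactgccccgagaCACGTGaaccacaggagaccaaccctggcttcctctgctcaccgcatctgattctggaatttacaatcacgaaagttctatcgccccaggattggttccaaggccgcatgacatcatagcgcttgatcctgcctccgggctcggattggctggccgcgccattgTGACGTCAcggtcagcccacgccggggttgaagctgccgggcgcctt
Elovl6: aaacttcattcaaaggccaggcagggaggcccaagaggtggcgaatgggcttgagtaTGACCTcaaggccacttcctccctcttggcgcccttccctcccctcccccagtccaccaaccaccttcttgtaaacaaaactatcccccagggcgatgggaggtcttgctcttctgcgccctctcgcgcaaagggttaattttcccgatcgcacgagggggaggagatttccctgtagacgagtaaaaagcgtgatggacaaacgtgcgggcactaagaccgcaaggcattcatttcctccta

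Counted from the start site, the *Elovl5* window held TGACGTCA at position 4, which 1.79% of the 32851 RefSeq promoters of this length contain, and CACGTG at position -161. The *Elovl4* window held CACGTG at position 6, a motif present in 7.15% of promoters. The *Elovl6* window held AGGTCA on the opposite strand at position -193, as 16.3% of promoters do. The core TGACG (20.8% of promoters) was matched in *Elovl7* at positions -108 and -62 as well as within the *Elovl5* element, and CCAAT (37.4%) was matched in *Elovl1*, *Elovl4* and *Elovl5*. AGGTCA was also matched in another start site window of *Elovl1*. TCACNCCAC (1.24%) matched no window of an elongase, and no motif matched *Elovl2*. These matches describe letters in the window and were not tied to binding.

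*Elovl6* had the highest group mean per length of the 7 elongases in all 8 groups. Per kilobase of counted exon, the 7 genes together reached 319 ± 57.8 CPM (SD, n = 5 mice here and for each value below) in chow control mice, of which *Elovl6* made up 72.3% ± 4.0, *Elovl5* 19.8% ± 4.2 and *Elovl3* 5.19% ± 0.72. In chow C-3BO mice the sum was 836 ± 136 CPM per kb and the share of *Elovl3* was 30.7% ± 2.8. On HFD the sum was 94.0 ± 28.6 CPM per kb in control and 423 ± 128 in C-3BO mice, and the share of *Elovl3* was 1.13% ± 1.2 and 35.9% ± 3.9. The injected mice gave 279 ± 99.6 CPM per kb with saline and 649 ± 50.7 with CL on chow, and 93.2 ± 24.3 and 305 ± 67.4 on HFD, with *Elovl3* at 0.966%, 16.5%, 2.03% and 28.4% of the sum in that order. In HFD control mice *Elovl5* made up 42.0% ± 6.7 and *Elovl6* 45.8% ± 9.2 of the sum. There *Elovl5* was 37.9, 36.3, 38.3, 43.9 and 33.5 CPM per kb and *Elovl6* 35.5, 35.7, 40.2, 88.2 and 26.0, so *Elovl5* was above *Elovl6* in 3 of 5 mice, and replicate 4 held the one large difference the other way. *Elovl5* was also above in 1 of 5 HFD saline mice, and in 0 of 5 in each of the other 6 groups.

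**Figure D1:**
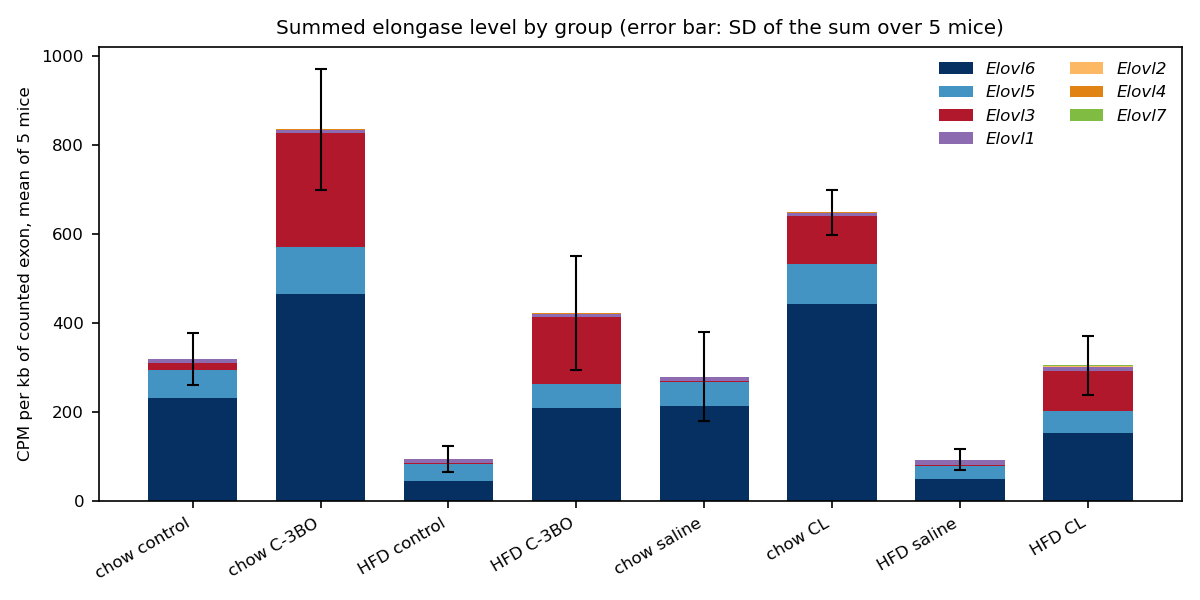
Mean level of each elongase in CPM per kb of counted exon, stacked over the 7 genes for the 8 groups of 5 mice, with error bars for the SD of the sum. The sum ranged from 93.2 in HFD saline to 836 in chow C-3BO mice, and the *Elovl3* segment is visible mainly in the C-3BO and CL groups.

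The question asked of each elongase was whether its transcript changed with *Gpr3* overexpression or with β3-adrenergic stimulation, and whether diet altered this. The edgeR quasi-likelihood test was run over 13277 genes, and a change was called at a Benjamini-Hochberg adjusted p under 0.05. CL raised *Elovl3*, *Elovl4*, *Elovl5* and *Elovl6* on chow, that is, 4 of 7 elongases, where 9.16% of all tested genes were called higher, and 0 of 7 were called lower, where 6.13% of all genes were. The same 4 rose with CL on HFD, against 12.7% of all genes called higher, and 0 fell, against 10.8%. C-3BO on chow raised these 4 (15.8% of all genes were called higher) and lowered 1, *Elovl1* (15.9% were called lower). C-3BO on HFD raised 5, the same 4 and *Elovl2* (19.3% called higher), and lowered *Elovl1* (15.5% called lower). Without HFD C-3BO replicates 4 and 5, *Elovl2* and *Elovl5* lost their calls there (log2 fold changes 1.91 and 0.30, adjusted p = 0.17 each). The median log2 fold change of the 7 elongases was 1.05 and 0.68 with CL and 1.01 and 2.21 with C-3BO, chow first and HFD second, while that of all tested genes lay between -0.03 and -0.01.

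**Figure D2:**
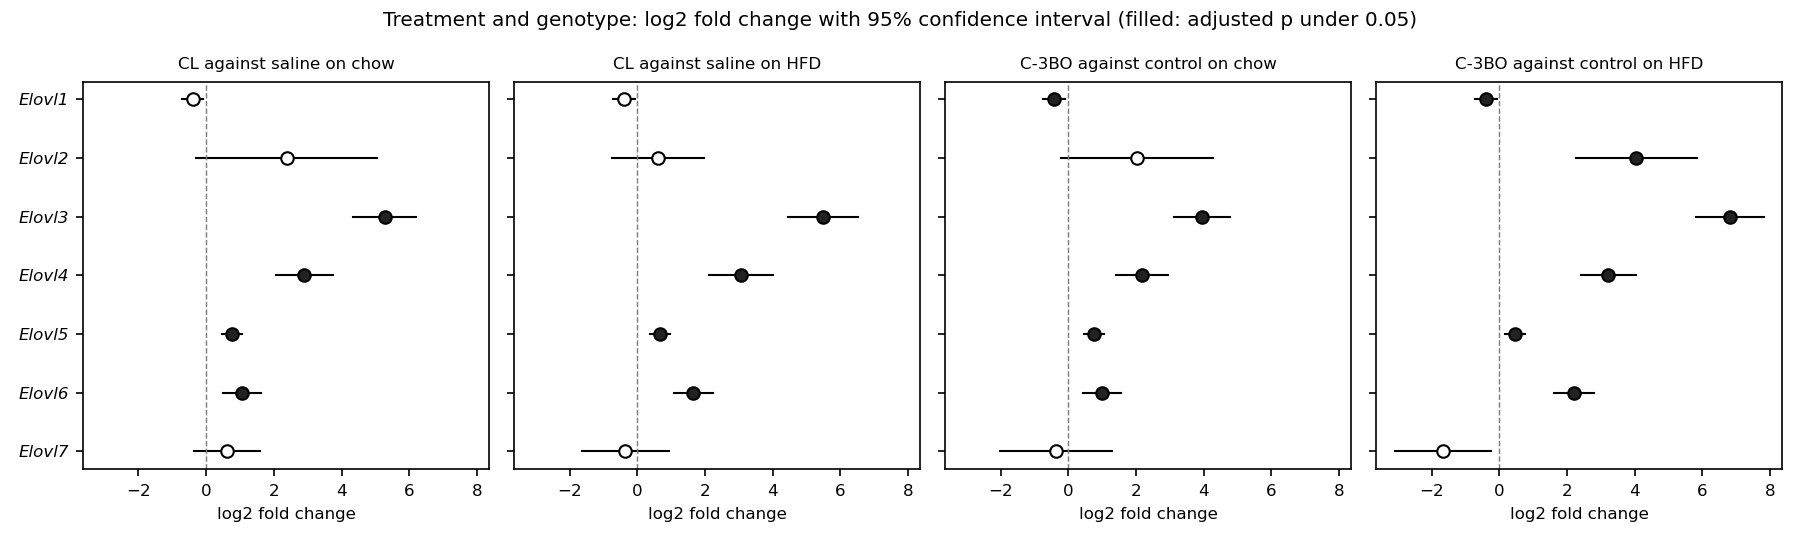
Log2 fold change (x axis) of each elongase for the CL and the C-3BO comparison within either diet, with the 95% confidence interval of the edgeR fit. Filled points passed an adjusted p of 0.05. *Elovl3* lies furthest to the right in all 4 panels, from 3.95 to 6.80, and *Elovl1* lies slightly to the left of 0 in each.

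*Elovl3* showed the largest increase of the family in all 4 comparisons. Its levels were 31.5, 39.6, 36.9, 19.6 and 28.2 CPM in the 5 chow control mice and 422, 436, 609.8, 402 and 531 CPM in the chow C-3BO mice. On HFD the controls stood at 0.288, 0.533, 4.19, 6.36 and 0.358 CPM and the C-3BO mice at 265, 305, 183, 390.3 and 266 CPM. Every C-3BO mouse was therefore above every control on its diet, and the HFD controls split into 3 mice with 3 to 6 counts and 2 mice, replicates 3 and 4, with 61 and 86 counts. The log2 fold change was 3.95 (SE 0.41, 15.4-fold, adjusted p = 3.26e-09) on chow and 6.80 (SE 0.50, 112-fold, adjusted p = 2.45e-13) on HFD, and the latter was 7.55 without HFD control replicate 4.

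Saline-injected mice had 7.67, 0.334, 2.77, 6.70 and 8.08 CPM of *Elovl3* on chow and 2.62, 4.41, 2.79, 2.01 and 6.03 CPM on HFD. These levels rest on 3 to 95 counts per library on chow and 2 to 38 on HFD. Chow saline replicate 2 was at the floor of 3 counts, and HFD saline replicate 4, with 2 counts, was below it. Mice given CL had 222, 265, 202, 212 and 102 CPM on chow and 309, 182, 109.6, 149.8 and 95.6 CPM on HFD. The groups again did not overlap. CL raised *Elovl3* by 5.28 (SE 0.46, 38.8-fold, adjusted p = 6.48e-10) on the log2 scale on chow and by 5.48 (SE 0.51, 44.6-fold, adjusted p = 6.58e-10) on HFD. *Pitx3*, whose exons overlap *Elovl3*, had log2 fold changes of 0.83 and 2.52 with C-3BO on chow and HFD (adjusted p = 0.162 and 0.000495). With CL they were 0.77 and 1.69 (adjusted p = 0.356 and 0.0461). The part of *Pitx3* in the *Elovl3* result was not tested. Ordered by group mean, *Elovl3* was highest in chow C-3BO mice (480.1 ± 88.0 CPM), whose range lay apart from that of HFD C-3BO mice (282 ± 75.1). HFD C-3BO, chow CL (201 ± 60.2) and HFD CL (169 ± 85.3) mice overlapped with their neighbours in this order, chow control mice (31.2 ± 7.86) stood apart from the groups above and below, and the chow saline (5.11 ± 3.40), HFD saline (3.57 ± 1.64) and HFD control (2.35 ± 2.78) mice overlapped.

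**Figure D3:**
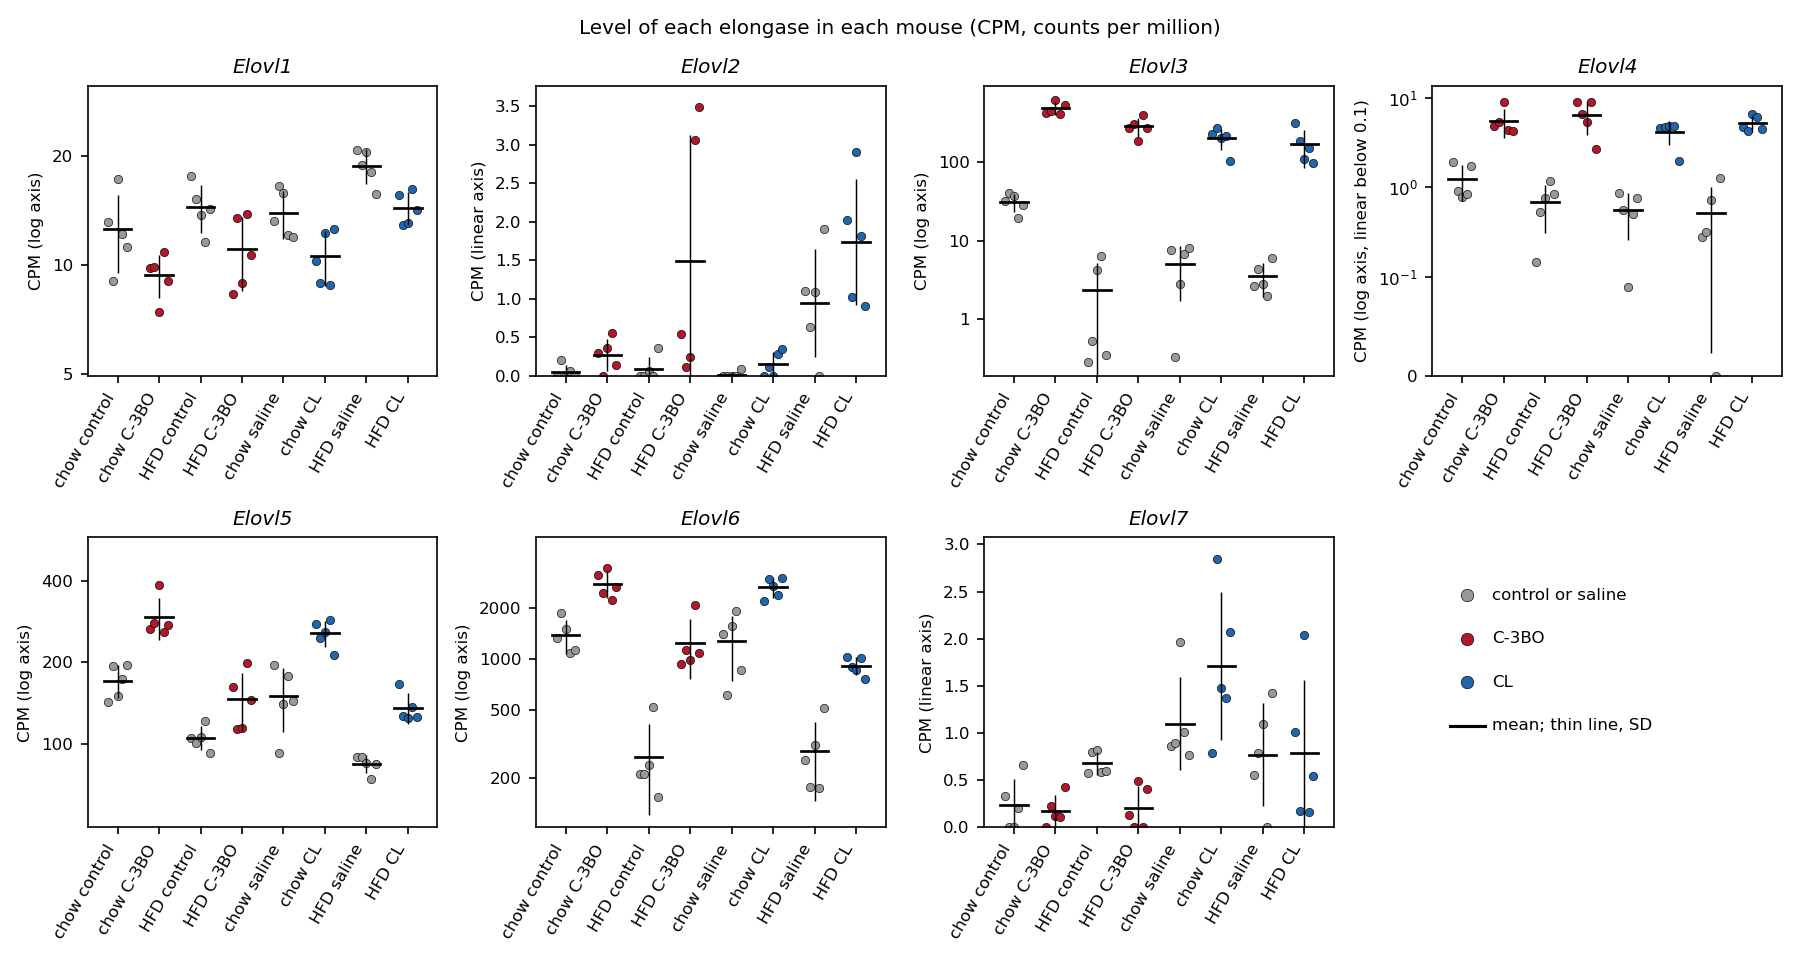
CPM of each elongase in each of the 40 mice by group (points), with group mean (bar) and SD (thin line). The axis is logarithmic for *Elovl1*, *Elovl3*, *Elovl5* and *Elovl6*, logarithmic above 0.1 CPM for *Elovl4*, and linear for *Elovl2* and *Elovl7*. C-3BO and CL points of *Elovl3*, *Elovl4* and *Elovl6* lie above all control or saline points of the same diet.

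*Elovl6*, which supplies stearate from newly made palmitate, was 1329, 1859, 1502, 1079 and 1131 CPM in chow control and 3122, 2444, 3435, 2219.6 and 2631 CPM in chow C-3BO mice. HFD control mice had 211, 213, 239, 525 and 155 CPM, and HFD C-3BO mice 930.4, 1131, 988, 2085 and 1091 CPM. All C-3BO mice exceeded all controls of their diet, and replicate 4 was the highest mouse in both HFD groups. The log2 fold changes were 1.01 (SE 0.28, adjusted p = 0.00564) on chow and 2.21 (SE 0.29, adjusted p = 2.24e-07) on HFD. With saline and CL the levels were 1397, 615, 1554, 1913 and 864 against 2188, 2926, 2674, 2384 and 2965 CPM on chow, and 257, 177, 314, 175 and 514 against 1032, 901, 862, 1011 and 763 CPM on HFD. These ranges did not overlap either, and *Elovl6* rose by 1.05 (SE 0.28, adjusted p = 0.00861) and 1.66 (SE 0.29, adjusted p = 4.28e-05) on the log2 scale.

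*Elovl4*, best known for chains of retina, skin and brain, was scarce in BAT but rose with both treatments. It had 1.90, 0.912, 0.783, 0.834 and 1.73 CPM in chow control and 4.82, 5.32, 9.08, 4.43 and 4.30 CPM in chow C-3BO mice, and 0.144, 0.533, 0.755, 1.18 and 0.834 against 8.98, 6.55, 5.38, 8.96 and 2.66 CPM on HFD. Saline mice had 0.865, 0.557, 0.0894, 0.507 and 0.765 CPM on chow, and CL mice 4.62, 4.74, 4.80, 4.90 and 1.99 CPM. On HFD, saline mice had 0 to 1.27 CPM and CL mice 4.24 to 6.69 CPM. No treated range met its control range, although these levels rest on 13 to 76 counts per treated and 0 to 23 per control library. The log2 fold changes with CL were 2.90 (SE 0.42, adjusted p = 6.39e-06) on chow and 3.06 (SE 0.47, adjusted p = 7.4e-06) on HFD, and those with C-3BO were 2.18 (SE 0.38, adjusted p = 3.03e-05) on chow and 3.23 (SE 0.40, adjusted p = 7.16e-08) on HFD. Of the 8 epidermal and sebaceous markers, *Awat1* had no counts in any group and between 2 and 5 of the list were at 0 in each group. The summed level of the list was 2.31 to 7.88 CPM over all libraries. Its median was 3.80 CPM in chow control and 6.09 in chow C-3BO mice, 3.50 and 5.26 on HFD, 3.34 and 5.41 with saline and CL on chow, and 5.22 and 7.10 on HFD. Its part in the result was not tested.

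*Elovl5*, the elongase of polyunsaturated chains, rose less. Chow control mice had 143, 194, 151, 173 and 196 CPM and chow C-3BO mice 266, 279.7, 384, 259 and 275 CPM, with no overlap, a log2 fold change of 0.77 (SE 0.15) and an adjusted p of 9.49e-05. CL gave 276, 245, 258, 286 and 213 CPM against 196, 92.5, 141, 178 and 144 CPM with saline on chow (log2 fold change 0.77, SE 0.15, adjusted p = 0.00031). On HFD, CL gave 166, 127, 125, 137 and 126 CPM against 89.5, 89.6, 85.3, 74.2 and 84.8 CPM (log2 fold change 0.68, SE 0.15, adjusted p = 0.00108). The CL and saline ranges stood apart on both diets. HFD C-3BO mice, with 162, 114, 115, 199.7 and 146 CPM, overlapped with HFD controls at 106, 101, 107, 122 and 93.2 CPM. The log2 fold change there was 0.48 (SE 0.15, adjusted p = 0.0106), and the call was lost without HFD C-3BO replicates 4 and 5 (0.30, adjusted p = 0.17) or without replicate 4 alone (0.34, adjusted p = 0.0756).

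*Elovl1*, which makes saturated very long chains for sphingolipids, went the other way by a small amount. Its levels were 9.02 to 17.2 CPM in chow control and 7.41 to 10.8 CPM in chow C-3BO mice, and 11.5 to 17.6 against 8.30 to 13.9 CPM on HFD, so the ranges overlapped on both diets. *Elovl1* fell by 0.42 on the log2 scale with C-3BO on chow (SE 0.16, adjusted p = 0.039) and by 0.40 on HFD (SE 0.16, adjusted p = 0.0447). The exact permutation p, two-sided over the 252 splits of 5 and 5 mice, was 0.0556 in each case (0.0841 adjusted over 56 comparisons of this kind). Leaving out chow control replicate 1, 3 or 4 or chow C-3BO replicate 1, 2, 3 or 5 ended the chow call, with log2 fold changes from -0.44 to -0.28, and leaving out HFD control replicate 1, 2 or 5 or HFD C-3BO replicate 1, 3 or 5 ended the HFD call, with values from -0.39 to -0.31. With CL the log2 fold change was -0.39 on either diet (adjusted p = 0.0746 on chow and 0.0755 on HFD), and it passed without chow CL replicate 5 (-0.47, adjusted p = 0.0405) or HFD saline replicate 5 (-0.44, adjusted p = 0.0485). The exact permutation p for CL was 0.0476 on chow and 0.0159 on HFD (0.0762 and 0.0307 adjusted over the 56 comparisons). *Cdc20*, whose exons overlap *Elovl1*, had log2 fold changes of -1.51 and -0.97 with C-3BO on chow and HFD (adjusted p = 0.00407 and 0.0265), and of -0.05 and 0.96 with CL (adjusted p = 0.952 and 0.0364). Its part in the result was not tested.

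*Elovl7* was close to the limit of detection, with 0 to 24 counts in a library. On HFD its level was 0.576 to 0.824 CPM in controls and 0 to 0.489 CPM in C-3BO mice. These ranges lay apart and the exact permutation p was 0.00794, the smallest that 5 and 5 mice allow, or 0.0159 after adjustment over the 56 member comparisons of this kind. The edgeR log2 fold change of -1.66 (SE 0.71) did not pass (adjusted p = 0.0644), though it did without HFD C-3BO replicate 3 (-2.39, adjusted p = 0.0294). The other 3 values were 0.61 and -0.36 with CL on chow and HFD and -0.35 in chow C-3BO mice, with adjusted p of 0.439, 0.736 and 0.781, and each of those pairs of groups overlapped.

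*Elovl2*, which acts on polyunsaturated chains and is prominent in liver, had 0 to 17 counts per library. It exceeded 3 counts in 11 of the 12 libraries with *Lcn8* counts, at a median of 1.46 CPM, and in 4 of the other 28, at a median of 0.0691 CPM. In those 28 it reached at most 0.554 CPM, too low for the filter, so it was tested only through the 12. All comparisons in which *Elovl2* was called hold libraries of that set, so the calls are not separate support. The first 3 HFD C-3BO mice had 0.544, 0.113 and 0.245 CPM, whereas mice 4 and 5 of that group, whose libraries held *Alb*, had 3.06 and 3.48 CPM, while HFD controls had 0 to 0.358 CPM. From summed counts, 39 in C-3BO and 4 in control mice, the ratio was 17.6 (95% counting interval 6.34 to 67.7), and edgeR gave a log2 fold change of 4.05 (SE 0.88, adjusted p = 0.000423). Without replicates 4 and 5 it was 1.91 (adjusted p = 0.17), without HFD C-3BO replicate 5 alone 3.42, and without HFD control replicate 5 it was 5.36. Of the 15 liver markers, 15 were called higher in HFD C-3BO mice, where 19.3% of all genes were, and 1 without replicates 4 and 5. Their part in the *Elovl2* result was not tested beyond these fits. The summed counts were 9 with CL and 1 with saline on chow (ratio 8.37, interval 1.16 to 367) and 11 in C-3BO and 3 in control mice on chow (ratio 4.88, interval 1.29 to 27.3), and neither comparison passed edgeR's test (adjusted p = 0.236 and 0.164). On HFD, where every saline and CL library held *Lcn8* counts, the summed counts were 44 with CL and 33 with saline. The ratio was 1.45 (interval 0.901 to 2.35), and the edgeR log2 fold change was 0.61 (SE 0.67, adjusted p = 0.564). In bulk tissue, more or fewer cells of a type and more or less RNA per cell cannot be told apart.

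**Figure D4:**
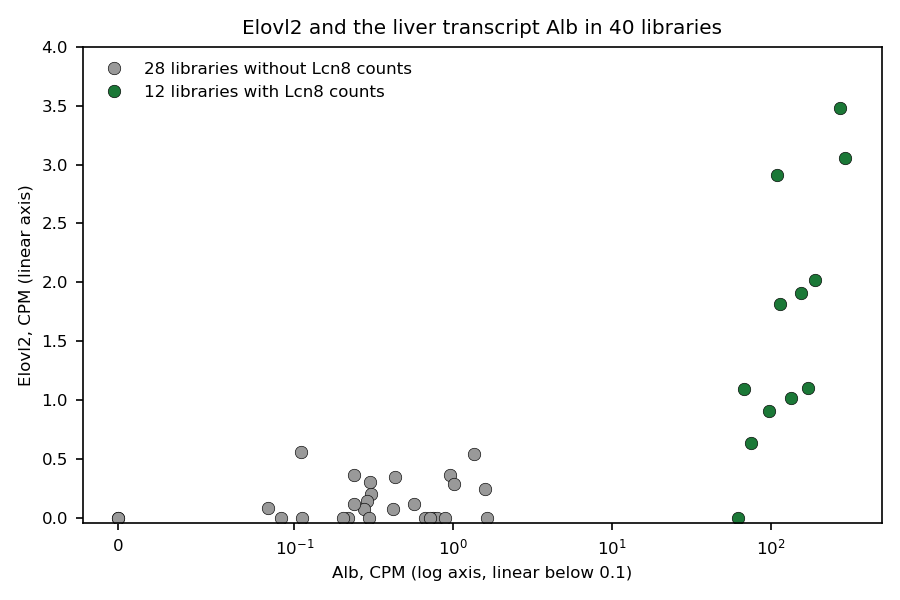
*Elovl2* (y axis, CPM) against the liver transcript *Alb* (x axis, CPM, logarithmic above 0.1) in the 40 libraries. The 12 libraries with *Lcn8* counts lie between 62.2 and 294 CPM of *Alb* and hold all values of *Elovl2* above 0.554 CPM.

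*Elovl5* and *Elovl6* were lower on HFD than on chow in all 4 diet comparisons. In saline and CL mice every HFD library and no chow library held *Lcn8* counts. Diet and library set cannot be told apart there, for these genes and for every diet comparison of injected mice below. In uninjected control mice 3 elongases were lower on HFD than on chow, *Elovl3*, *Elovl5* and *Elovl6*, where 17.5% of all genes were called lower, and 0 were higher, where 15.4% were. In C-3BO mice 2 were lower, *Elovl5* and *Elovl6* (12.2% of all genes), and 1 was higher, *Elovl2* (13.5%). With saline, 2 were lower (8.04% of all genes) and 2, *Elovl1* and *Elovl2*, were higher (7.45%). With CL, the lower 2 (12.7%) and the higher 2 (10.9%) were again these genes. *Elovl6* fell by 2.36 (SE 0.29) on the log2 scale in control, 1.15 (SE 0.28) in C-3BO, 2.13 (SE 0.29) in saline and 1.52 (SE 0.28) in CL mice, with adjusted p of 1.38e-07, 0.00234, 5.61e-06 and 0.00015. *Elovl5* fell by 0.70, 0.99, 0.82 and 0.91 in the same order (SE 0.15 each, adjusted p = 0.00029, 5.19e-06, 0.000326 and 2.67e-05). In each of these 8 cases every HFD mouse was below every chow mouse of its treatment. The share of all genes with ranges apart in this way was not computed.

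HFD lowered *Elovl3* in control mice. In these mice its mean was 31.2 CPM on chow and 2.35 CPM on HFD, and it fell by 3.62 on the log2 scale (SE 0.47, 12.3-fold lower, adjusted p = 2.74e-07) with no overlap, or by 4.38 without HFD control replicate 4. In C-3BO mice all 5 HFD values also lay below all 5 chow values (exact permutation p = 0.00794, 0.0159 adjusted), and the edgeR log2 fold change was -0.77 (SE 0.36, adjusted p = 0.115, or 0.00501 when only these 10 libraries were fitted). In saline mice, where the chow level was already low, it was -0.44 (SE 0.57, adjusted p = 0.653), and in CL mice it was -0.24 (SE 0.36, adjusted p = 0.675). Both of these pairs of groups overlapped. *Pitx3* had log2 fold changes with HFD of -2.26 in control, -0.57 in C-3BO, -0.30 in saline and 0.62 in CL mice. The adjusted p were 0.00132, 0.401, 0.813 and 0.409, and its part in the *Elovl3* result was not tested.

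*Elovl4* was not called in any diet comparison, with log2 fold changes of -0.82 in control, 0.22 in C-3BO, 0.15 in saline and 0.31 in CL mice and adjusted p from 0.144 to 0.903. *Elovl1* had log2 fold changes of 0.21 and 0.23 in control and C-3BO mice (adjusted p = 0.313 and 0.329) and rose by 0.44 in saline and 0.45 in CL mice (adjusted p = 0.0464 and 0.0342). These last calls ended in 7 and 6 of the 10 fits that left out a library, those without chow saline replicate 1, 4 or 5, HFD saline replicate 1, 2, 3 or 4, chow CL replicate 1, 2 or 4, or HFD CL replicate 1, 4 or 5, and in a fit with a term for the libraries with *Lcn8* counts (0.19 in each case, adjusted p = 0.837 and 0.787). Of the 8 other settings, that term among them, 4 kept the *Elovl1* call in saline mice and 7 kept it in CL mice. *Cdc20* was called higher on HFD in all 4 comparisons, by 0.89 to 2.18 on the log2 scale, and its part in the *Elovl1* result was not tested. *Elovl7* passed in none, at 1.51, 0.20, -0.29 and -1.25 (adjusted p = 0.0615, 0.905, 0.786 and 0.105), but did so in control mice without chow control replicate 5 (2.08, adjusted p = 0.0198) and in CL mice without HFD CL replicate 3 (-1.82, adjusted p = 0.0307).

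*Elovl2* counts rose from 1 in all chow saline libraries together to 33 in HFD saline (ratio 57.8, counting interval 9.67 to 2350.0) and from 9 in chow CL to 44 in HFD CL (ratio 10.0, interval 4.82 to 23.3). edgeR gave log2 fold changes of 5.05 (SE 1.09, adjusted p = 0.0015, or 6.28 without chow saline replicate 5) and 3.28 (SE 0.78, adjusted p = 0.00195). In C-3BO mice it gave 2.22 (SE 0.77, adjusted p = 0.0312), or 0.07 (adjusted p = 0.973) without replicates 4 and 5 of HFD C-3BO. Leaving out chow C-3BO replicate 1, 2 or 5 or HFD C-3BO replicate 4 or 5 alone also ended this call, with values from 1.59 to 2.25. Liver markers were called higher on HFD for 13 of 15 genes in saline and in CL mice (7.45% and 10.9% of all genes). The count was 0 in control mice (15.4% of all genes). In C-3BO mice 13 of 15 were called higher with all libraries (13.5% of all genes) and 0 without replicates 4 and 5. In uninjected controls, where no library held *Lcn8* counts, the counts were 3 on chow and 4 on HFD. With a term for the libraries with *Lcn8* counts, which rests on the HFD C-3BO mice alone, the values were 1.62 in saline and -0.15 in CL mice (adjusted p = 0.614 and 0.982).

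Skeletal muscle transcripts also moved with diet. Their summed level over 10 markers was 912 to 10722 CPM in chow control mice and 5.97 to 261 CPM in HFD control mice, 458 to 4402 and 7.00 to 86.6 CPM in C-3BO mice, up to 2909 and up to 2389.7 CPM in saline mice (medians 1271 and 64.9), and 14.2 to 162 and 31.7 to 808 CPM in CL mice. All 10 markers were detected in every group. All 10 were called lower on HFD in control and in C-3BO mice (17.5% and 12.2% of all genes). The count was 0 in saline and CL mice (8.04% and 12.7% of all genes). With CL on chow, 9 of 10 were called lower (6.13% of all genes). Their part in the diet results and in the CL results on chow was not tested. In CL mice the median was 86.6 CPM on chow and 226 CPM on HFD. White adipocyte markers, summed over 6 genes, had medians of 213 and 505 CPM in chow and HFD controls, 132 and 136 CPM in C-3BO, 204 and 444 CPM in saline and 149.9 and 191 CPM in CL mice, with *Tcf21* at 0 in 5 groups. Macrophage markers were called higher on HFD for 5 of 5 genes in saline mice, where 7.45% of all genes were. In CL mice, the other group in which *Elovl1* rose, the count was 1 of 5 (10.9% of all genes) and rests on 1 gene. It was 0 of 5 in control and C-3BO mice (15.4% and 13.5% of all genes). The part of these markers in the *Elovl1* result was not tested.

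**Figure D5:**
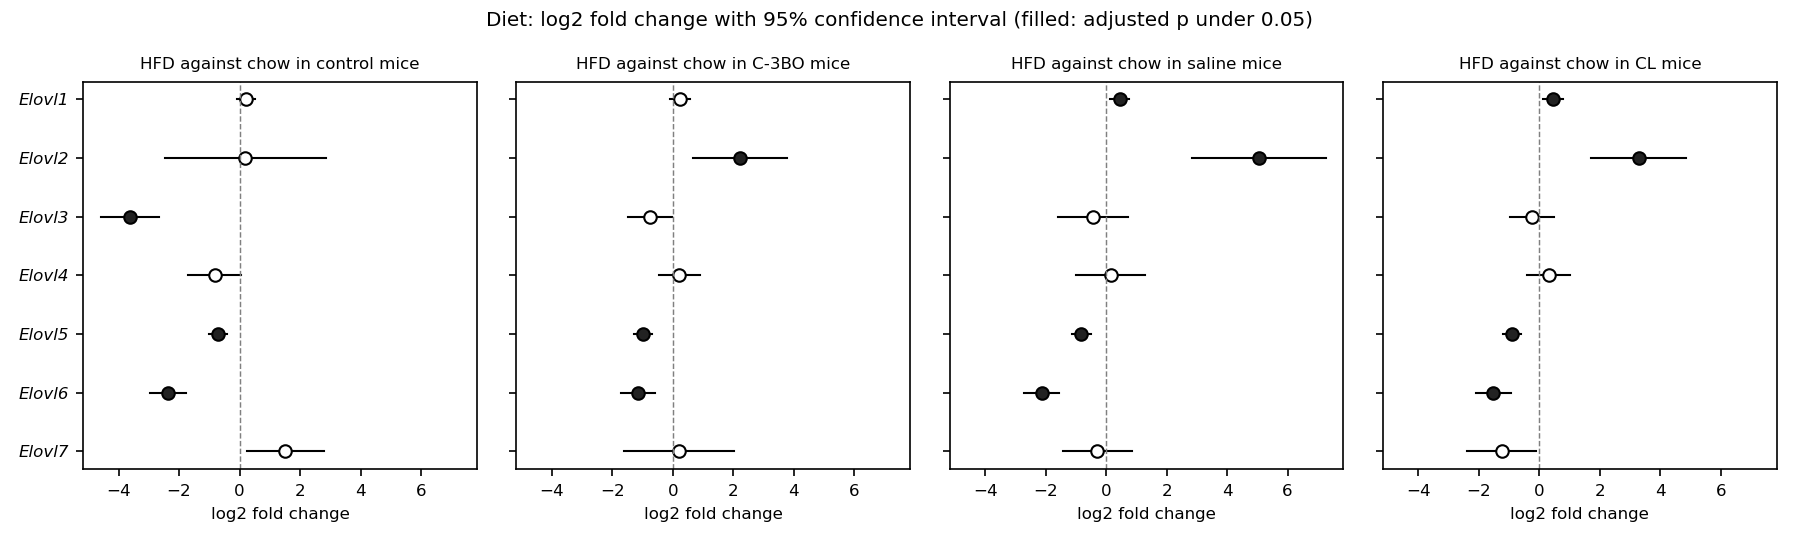
Log2 fold change (x axis) of each elongase for HFD against chow in control, C-3BO, saline and CL mice, with the 95% confidence interval of the edgeR fit and filled points for an adjusted p under 0.05. *Elovl5* and *Elovl6* lie to the left of 0 in all 4 panels, and *Elovl3* passed in control mice, at -3.62.

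Whether diet changed the treatment effect was tested by the interaction. The C-3BO effect on *Elovl3* was larger on HFD than on chow by 2.85 on the log2 scale (SE 0.59, 95% interval 1.66 to 4.05, adjusted p = 0.00517), the 1 elongase of 7 that passed, where 2.09% of all genes did. It was 2.69 (adjusted p = 0.0242) when HFD C-3BO mice 4 and 5 were left out and 3.59 (adjusted p = 0.000495) without HFD control replicate 4. The HFD control mice enter this test, the C-3BO comparison on HFD and the diet comparison in control mice alike. *Gpr3* itself also differed between diets in C-3BO mice, with means of 375 CPM on chow and 792 CPM on HFD. Its part in the interaction was not tested. For *Elovl6* the difference was 1.21 (interval 0.41 to 2.00, adjusted p = 0.102), and it passed without HFD control replicate 4 (1.59, adjusted p = 0.00994). When HFD C-3BO mice 4 and 5 were left out, the *Elovl6* difference was 0.91 (adjusted p = 0.341). *Elovl4* gave 1.04 (interval -0.07 to 2.15) and *Elovl5* -0.30 (interval -0.71 to 0.12). *Elovl1* gave 0.02 (interval -0.43 to 0.47), *Elovl2* 2.02 (interval -1.65 to 5.69) and *Elovl7* -1.31 (interval -3.62 to 1.00). For CL, 0 of 7 elongases passed the same test in edgeR or in DESeq2, 0 had an unadjusted p under 0.05, and 0.0151% of all genes passed, while the difference for *Elovl3* was 0.20 with an interval from -1.16 to 1.56.

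The C-3BO and CL effects were set against each other on each diet, bearing in mind that they come from cohorts with their own controls. On chow 0 of 7 elongases differed, where 6.24% of all genes did, and on HFD 0 of 7, where 1.80% did. Given as the log2 change with C-3BO less that with CL, *Elovl3* was at -1.33 on chow (interval -2.47 to -0.19, adjusted p = 0.161) and 1.32 on HFD (interval -0.11 to 2.76, adjusted p = 0.425). For *Elovl6* it was -0.04 (interval -0.84 to 0.75) and 0.55 (interval -0.25 to 1.35), for *Elovl4* -0.72 (interval -1.86 to 0.43) and 0.16 (interval -1.17 to 1.50), and for *Elovl5* 0.01 (interval -0.41 to 0.42) and -0.20 (interval -0.63 to 0.22). The intervals of *Elovl3* and *Elovl4* leave room for differences of more than 1 on the log2 scale, so these data do not show that both interventions act alike on them. At an unadjusted p under 0.05, 1 elongase (*Elovl3*) differed on chow and 1 (*Elovl2*, 3.45, adjusted p = 0.113) on HFD, and DESeq2 called 0 in each. *Elovl2* passed on HFD without HFD control replicate 5 (4.74, adjusted p = 0.0432). Without HFD C-3BO replicates 4 and 5, the libraries of that group with *Lcn8* counts, the *Elovl2* value was 1.31 (interval -0.91 to 3.52, adjusted p = 0.753).

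The enzymes that complete the elongation cycle were listed as 7 genes, of which 6 were tested. CL raised 2 of 6 on chow and 3 of 6 on HFD, C-3BO raised 2 of 6 on chow and 4 of 6 on HFD, and 0 were called lower in these comparisons. Of all tested genes, 9.16%, 12.7%, 15.8% and 19.3% were called higher there. *Hsd17b12*, the ketoacyl reductase, rose in all 4, from 308 ± 62.2 to 512 ± 31.7 CPM with CL on chow, from 183 ± 50.8 to 473 ± 26.1 CPM with CL on HFD, from 309.6 ± 58.8 to 563 ± 49.5 CPM with C-3BO on chow and from 200.5 ± 84.0 to 487 ± 54.9 CPM with C-3BO on HFD (log2 fold changes 0.73, 1.36, 0.86 and 1.28). *Ptplb* (now *Hacd2*), a dehydratase, also rose in all 4, by 0.72, 0.59, 0.63 and 1.03. The dehydratase *Ptplad1* (*Hacd3*) rose on HFD, by 0.34 with CL (adjusted p = 0.00912) and 0.59 with C-3BO (adjusted p = 4.67e-06), and had log2 fold changes of -0.04 and 0.02 on chow (adjusted p = 0.829 and 0.906). *Ptpla* (*Hacd1*) rose by 0.76 with C-3BO on HFD (adjusted p = 0.0179). On HFD, *Hsd17b12* fell by 0.63 in control and 0.74 in saline mice, and its changes in C-3BO and CL mice, -0.21 and -0.11, did not pass (adjusted p = 0.411 and 0.684). The median log2 fold change of the list was 0.15 and 0.41 with CL and 0.31 and 0.67 with C-3BO (chow, then HFD), against -0.03 to -0.01 for all tested genes.

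Of 8 desaturases, which introduce double bonds into the same chains, 7 were tested. CL lowered 2 of 7 on each diet (6.13% of all genes on chow and 10.8% on HFD) and C-3BO lowered 3 of 7 on each diet (15.9% and 15.5% of all genes), with 1 raised by C-3BO on HFD, the scarce *Scd3* (0.200 ± 0.139 CPM in control and 1.00 ± 0.670 CPM in C-3BO mice, adjusted p = 0.00817). Without replicates 4 and 5 of HFD C-3BO, 0 were raised. The median log2 fold change of the 7 desaturases was 0.04 and 0.35 with CL and -0.31 and 0.11 with C-3BO (chow, then HFD). The last was -0.65 without replicates 4 and 5. The falls named next are therefore those of single genes and not of the whole list. *Fads1*, the delta-5 desaturase of polyunsaturated chains, fell from 39.0 ± 9.59 to 23.2 ± 9.01 CPM with CL on chow and from 47.8 ± 3.37 to 21.1 ± 2.78 CPM with C-3BO on chow, and from 35.9 ± 5.89 to 19.9 ± 4.53 and from 31.5 ± 7.78 to 18.2 ± 2.68 CPM on HFD (adjusted p = 0.00398, 6.78e-06, 0.00164 and 0.0011). *Fads3* fell by 1.64, 1.98, 1.60 and 1.38 on the log2 scale in the same order, and *Fads2*, the delta-6 desaturase, by 1.09 and 0.62 with C-3BO on chow and HFD. With CL the log2 fold change of *Fads2* was -0.53 on chow and -0.04 on HFD (adjusted p = 0.11 and 0.941). *Elovl5* had the opposite sign in these comparisons. HFD lowered 5 of 7 desaturases in control mice (17.5% of all genes) and 2 of 7 in each of C-3BO, saline and CL mice (12.2%, 8.04% and 12.7% of all genes). The count in C-3BO mice was 3 of 7 without replicates 4 and 5.

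Fatty acid synthesis, which supplies the palmitate that *Elovl6* lengthens, was represented by 6 genes, all tested. HFD lowered 6 of 6 in control, C-3BO, saline and CL mice alike, with median log2 fold changes of -2.55, -2.63, -2.05 and -2.13, where 17.5%, 12.2%, 8.04% and 12.7% of all genes were called lower and the median of all genes lay between -0.01 and 0.03. *Acaca*, an acetyl-CoA carboxylase, had 1342 ± 269 CPM in chow and 253 ± 164 CPM in HFD control mice, and 1872 ± 290 against 179.9 ± 108 CPM in C-3BO mice. CL raised 2 of 6 on chow and 1 of 6 on HFD, and C-3BO raised 2 of 6 on each diet, against 9.16%, 12.7%, 15.8% and 19.3% of all genes. *Acacb*, the other carboxylase, rose in all 4, by 0.46 and 0.66 with CL and 0.92 and 0.83 with C-3BO (chow, then HFD). *Acaca*, in contrast to *Elovl6*, had log2 fold changes of 0.41, -0.19, 0.48 and -0.50 there, with adjusted p from 0.27 to 0.739, and the difference between these 2 genes was not tested. *Slc25a1*, the mitochondrial citrate carrier, rose by 0.83 with CL and 0.85 with C-3BO on chow, and *Me1*, malic enzyme, by 0.93 with C-3BO on HFD. Without replicates 4 and 5 of HFD C-3BO, 1 was higher and 1 lower with C-3BO on HFD.

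Of the genes that handle very long-chain fatty acids, *Abcd3*, a peroxisomal transporter, rose in all 4 treatment comparisons, by 0.87 and 1.36 with CL and 0.80 and 1.27 with C-3BO (chow, then HFD). *Abcd2*, its paralogue, fell by 0.95 and 0.71 with CL and by 0.90 with C-3BO on chow, and its log2 fold change with C-3BO on HFD was -0.49 (adjusted p = 0.125). *Cers6*, a ceramide synthase, passed in none of these comparisons and fell by 1.54 with HFD in control mice (adjusted p = 0.00548). A list of 13 regulators of lipid metabolism, all tested, was not limited to synthesis and included *Ppara* and *Esrra*. Of these, CL raised 3 and lowered 3 on chow and raised 2 on HFD. C-3BO raised 4 on chow and raised 3 and lowered 1 on HFD. These counts stand beside 9.16%, 12.7%, 15.8% and 19.3% of all genes called higher and 6.13%, 10.8%, 15.9% and 15.5% called lower, and several lie near those shares. *Mlx*, the partner of the carbohydrate response factor, rose in all 4 by 0.38 to 0.58. *Thrsp*, a lipogenic regulator, rose by 0.95 and 0.79 with CL and by 0.65 with C-3BO on chow, and fell by 1.11 to 1.40 with HFD in all 4 diet comparisons. *Ppara* fell by 0.52 with C-3BO on HFD and *Esrra* rose by 0.35. Without replicates 4 and 5 of HFD C-3BO, 0 of the 13 regulators were called in that comparison.

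Over the 40 libraries and 13270 other genes, the genes most like each elongase in log2 CPM were ranked by Pearson correlation, as a description of libraries that share treatments. *Elovl3* was most like *Acsf2* (r = 0.947), *Rbp4* (0.946) and *C1rl* (0.937), and *Elovl4* most like *Hacl1* (0.929), *Mccc1* (0.927) and *Pcca* (0.921). *Elovl5* was most like *Acsl5* (0.933), *Sorl1* (0.920) and *Thrsp* (0.906), and *Elovl6* like *Sorl1* (0.945), *Pgd* (0.945) and *Echdc1* (0.941). *Elovl1* and *Elovl7* had no partner above 0.785 and 0.722, the nearest being *Hn1l*, *Tnfrsf1b* and *Clic1*, and *Jag1*, *Sytl4* and *D630045J12Rik*. *Elovl2* was most like *Abcb11* (0.913), *Plg* (0.910) and *Ces3a* (0.904), all of them known as liver transcripts.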

How the data were processed

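BAT poly(A) RNA of 40 mice was sequenced on a HiSeq from TruSeq libraries. The authors mapped reads to mm9 with STAR, built HOMER tag directories and counted reads on RefSeq exons with iRNA-seq, and the deposited values are these raw counts, with no normalization. Versions and strandedness are not given in the sources used here. Each mouse was assigned by its label, and p-values measure the spread between the 5 libraries per group, which the study counts as animals.

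Genes were filtered with filterByExpr (minimum count 10, leaving 13277 of 20295) and scaled by TMM in edgeR 4.0.16 (R 4.3.3). A quasi-likelihood model with 8 group means was fitted to all 40 libraries, with Benjamini-Hochberg adjustment over all tested genes. CPM used TMM-scaled totals and log2 CPM a prior count of 2. Single elongases were also compared by exact two-sided permutation over 252 splits (scipy 1.17.1), adjusted over 56 comparisons. Overlap of ranges was recorded for the elongases only, so no share over all genes stands beside it. The members and gene lists were chosen with earlier results of these data known. All 7 elongases were named in each treatment and diet comparison. Up to 4 tested genes per list (those with the largest absolute change with C-3BO on HFD) and the 3 genes most correlated with each elongase were named too. The list of genes that handle very long-chain fatty acids is not reported here in full. Genes named outside this rule (*Gpr3*, *Ucp1*, *Alb*, *Lcn8*, *Awat1*, *Pitx3*, *Cdc20*) are checks, and *Ucp1* was set beside *Elovl3* after its values were seen. Alternatives were DESeq2 1.42.0, other scalings and filters, fits of the compared libraries alone, a term for libraries with *Lcn8* counts, replicate number as a block, and each library left out in turn.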

Additional observations from a re-analysis of the deposited data

Results flagged for a closer look

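In groups of 5 mice, 8 of the 56 sets of elongase levels held a mouse whose gap to the nearest other exceeded 0.71 of the group's range (Dixon's 95% limit), which chance gives in about 1 of 20 sets. *Elovl5* and *Elovl4* were highest in chow C-3BO replicate 3, at 384 and 9.08 CPM, and *Elovl4* was lowest in chow CL replicate 5, at 1.99 CPM. *Elovl6* was highest in HFD control replicate 4, at 525 CPM, and in HFD C-3BO replicate 4, at 2085 CPM. *Elovl7* stood out in chow saline replicate 3, at 1.97 CPM. *Elovl2* stood out in HFD control replicate 5 (0.358 CPM) and chow saline replicate 5 (0.0850 CPM), which rest on 3 and 1 counts.

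The effect of C-3BO on *Elovl3* differed between diets by the interaction test, by 2.85 on the log2 scale (edgeR adjusted p = 0.00517). *Gpr3* itself was higher in HFD than in chow C-3BO mice, and its part in this result was not tested.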

How the results depend on the processing

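The increases of *Elovl3*, *Elovl4* and *Elovl6* with CL and with C-3BO, and the decreases of *Elovl5* and *Elovl6* with HFD, kept their direction and passed in every alternative in which the gene was tested. In saline and CL mice these alternatives cannot separate diet from the libraries with *Lcn8* counts. The term for those libraries rests on the HFD C-3BO mice alone. Leaving out 1 library kept direction and call in 1017 values, lost a call in 32, gained one in 7 and reversed a sign in 64, and the other settings did so in 592, 19, 8 and 11. With at least 10 counts required in every library, where fewer elongases were tested, 2, 2, 3 and 3 were called for CL on chow, CL on HFD, C-3BO on chow and C-3BO on HFD, and 0 for the interaction of C-3BO with diet, since *Elovl3* was not tested. With library totals alone, which moved the median log2 fold change of all genes to between -0.23 and 0.21, 2 passed that interaction, and 5 were called for CL on each diet, *Elovl1* added. In saline mice 2 elongases were called for diet, both with the libraries of the comparison alone and with a term for *Lcn8* libraries, and with that term 2 in CL mice. That term gave -0.15 for *Elovl2* with HFD in CL mice, -0.12 for *Elovl2* and -0.078 for *Elovl1* in the interaction of C-3BO with diet, and the values without HFD C-3BO replicates 4 and 5 were -0.12 and -0.079. Without a filter, *Elovl1* gave -0.022 in that interaction and 0.017 in the contrast of C-3BO with CL on chow. For the latter, *Elovl1* gave 0.0030 with the compared libraries alone, and *Elovl5* gave -0.066 with library totals alone and -0.00345 with at least 10 counts. The cause of these changes was not tested.

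Replicate numbers are shared between groups, but no comparison had all 5 same-numbered pairs correlated above 0.1 (mean r from -0.14 to 0.17), so they were not treated as pairs. With replicate number as a block, 4 elongases were called for C-3BO on chow and 6 on HFD (*Elovl7* gained, *Elovl1* lost on both diets), 3 for HFD in saline mice, and *Elovl5* gave -0.00712 in the contrast of C-3BO with CL on chow. The counts of the other comparisons did not change.

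With 1 library left out, between 1 and 2 elongases passed the interaction of C-3BO with diet and between 0 and 1 the contrast of C-3BO with CL on HFD. Values whose sign was not settled ranged as follows. *Elovl7* went from -0.85 to 0.22 for C-3BO on chow, from -0.53 to 0.69 for HFD in C-3BO mice and from -0.53 to 0.041 for HFD in saline mice. *Elovl2* went from -1.11 to 1.13 for HFD in control mice, and *Elovl4* from -0.35 to 0.38 for HFD in saline mice. In the interaction of C-3BO with diet *Elovl1* went from -0.12 to 0.12. In that of CL with diet, *Elovl1* went from -0.057 to 0.077, *Elovl3* from -0.13 to 0.50, *Elovl4* from -0.043 to 0.69 and *Elovl5* from -0.18 to 0.064. In the contrast of C-3BO with CL on chow, *Elovl1* went from -0.12 to 0.11, *Elovl2* from -1.57 to 0.59, *Elovl5* from -0.078 to 0.17 and *Elovl6* from -0.24 to 0.16, and on HFD *Elovl1* went from -0.11 to 0.080 and *Elovl4* from -0.36 to 0.46. Depth limits *Elovl2* and *Elovl7*, with at most 24 counts, and HFD saline replicate 4, with 849126 counts.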

Other observations

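Within groups, *Elovl3*, *Elovl5* and *Elovl6* varied together from mouse to mouse. Over the 40 libraries, deviations from the group mean in log2 CPM had r = 0.62 between *Elovl3* and *Elovl5*, 0.62 between *Elovl3* and *Elovl6* and 0.53 between *Elovl5* and *Elovl6*, while *Elovl1* had r from -0.38 to -0.01 with the other 6 and *Elovl7* had 0.08 or less in size with these 3. Deviations of *Ucp1*, the uncoupling protein of brown fat, had r = 0.55 with *Elovl3*, 0.52 with *Elovl4* and -0.42 with *Elovl1*. These are descriptions, since the values share libraries and depth. Chow CL replicate 5 had *Ucp1* at 1644 CPM, against 5943 to 8986 CPM in the other 4 chow CL mice and 1267 to 1865 CPM in chow saline mice. In that mouse *Elovl3* was 102 CPM and *Elovl4* 1.99 CPM, the lowest of their group, while *Elovl6* was 2965 CPM, the highest. HFD control replicates 3 and 4, the mice with *Elovl3* at 4.19 and 6.36 CPM, had *Ucp1* at 5255 and 9442 CPM, against 2573 to 4544 CPM in the other 3.

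The uninjected and the saline-injected chow groups had *Elovl3* at 31.2 ± 7.86 and 5.11 ± 3.40 CPM with no overlap, whereas *Elovl6* overlapped at 1379.9 ± 316 and 1269 ± 525 CPM. These groups differ in cohort, age and injection, which cannot be told apart, and the difference was not tested.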
